A study of Mus musculus with 6 samples.

Results

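The cytosolic ribosomal proteins are the proteins that, together with ribosomal RNA, build the small (40S) and large (60S) subunits of the ribosome outside the mitochondria. Their genes were taken here by symbol: every gene with a probe in the deposited value table whose symbol starts with Rpl or Rps followed by a digit, or is Rplp0, Rplp1, Rplp2 or Rpsa, without the S6 kinases (Rps6k), Rps19bp and symbols that mark pseudogenes. The rule found 53 genes of the 8170 genes named in that table, measured by 72 probes. By the prefix Rpl or Rps alone, 32 were assigned to the 60S and 21 to the 40S subunit. Paralogs such as Rpl7l1 are counted by that prefix too, whether or not their proteins are part of the finished ribosome. Each gene is given by its probe with the highest mean signal over the 6 arrays. No measured difference between the groups entered the rule or the choice of probe. The list of genes itself was chosen with earlier results of these data known.

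TC-1/A9 is an MHC class I-deficient tumour line from C57BL/6 mice. It grew out of tumours that TC-1 cells, lung cells transformed with HPV16 E6/E7 and an activated Ha-ras oncogene, had formed in immunized animals, so every array compared here carries these oncogenes. Illumina Mouse WG6 bead arrays were used for RNA of 3 untreated samples and of 3 samples kept with IFNγ for 24 h, which the methods call biological triplicates of this 1 line. The labels give 50 U/ml of IFNγ, whereas the study's methods state another dose for the transcriptome samples. The comparison asks how IFNγ changed the transcriptome of these cells, and here, what it did to the transcripts of the ribosome itself.

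A ribosome needs each of its proteins in about equal numbers, and the genes for them are expressed in every growing cell. Most of their mRNAs begin with a C followed by a run of pyrimidines, the terminal oligopyrimidine (TOP) tract, through which mTOR signalling turns their translation up or down without necessarily changing the amount of mRNA. Several of the proteins have further roles. In human myeloid cells treated with IFNγ, RPL13A leaves the ribosome and, as part of the GAIT complex, blocks the translation of inflammatory mRNAs. RPL5, RPL11 and RPL23 bind MDM2 when ribosome assembly fails, and thereby stabilise p53. The arrays measured the mRNA of these genes and neither their translation nor the proteins.

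To show the tract itself, the bases around the annotated start of transcription were read from RefSeq promoters (build GRCm38.p6), which held 45 of the 53 genes. At an annotated start, a C followed by 4 or more pyrimidines on the transcribed strand stood in 8 of these 45 genes (17.8%), against 813 of all 27025 genes in that table (3.01%) and 0 of 62 mitochondrial ribosomal protein genes. A run of 8 or more pyrimidines within 20 bases on either side of a start was present in 21 of the 45 genes (46.7%) and in 18.4% of all genes. The following windows of 30 bases hold 15 bases before the annotated start and 15 from the start onwards, and the capitals mark the pyrimidine tract that begins there. Rps10 and Rpl28, which lay among the lowest changes, and Rpl35, Rps6, Rpl38 and Rplp2 are shown as examples of the tract.
Rps10 (chr17:27635230-27635259, minus strand): gcgccgcgcacgcccCTTCCTTTCCagcct
Rpl28 (chr7:4792950-4792979, plus strand): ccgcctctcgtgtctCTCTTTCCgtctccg
Rpl35 (chr2:39005117-39005146, minus strand): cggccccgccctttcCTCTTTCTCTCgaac
Rps6 (chr4:86857353-86857382, minus strand): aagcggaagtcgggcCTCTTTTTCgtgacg
Rpl38 (chr11:114668565-114668594, plus strand): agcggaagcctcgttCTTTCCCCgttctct
Rplp2 (chr7:141447636-141447665, plus strand): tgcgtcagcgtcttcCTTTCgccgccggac
No tract began at the annotated start of Rpl23, the gene with the highest change, of Rpl36al, the gene with the lowest, or of Rpl26. Annotated starts can be off by some bases, so these letters describe the windows only.
Rpl23 (chr11:97782425-97782454, minus strand): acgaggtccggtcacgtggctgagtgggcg
Rpl26 (chr11:68901551-68901580, plus strand): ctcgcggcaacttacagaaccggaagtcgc
The median log2 change after IFNγ, described next, was -0.04 over the 8 genes with the tract at an annotated start and -0.09 over the other 37. Changes below 0 were seen for 6 of the 8 and 26 of the 37. Among the 37, Rpl7a had a run of 21 pyrimidines near its annotated start. The split therefore does not separate mRNAs with a TOP tract from those without.

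Each array detected between 11504 and 12423 probes (detection p up to 0.01), and median intensities were 48.7 to 55.4. IFNγ replicate 3 stood apart from the other arrays of its group: its log2 signals over all probes had a Pearson r of 0.991 and 0.989 with them, where IFNγ replicates 1 and 2 had 0.995 and pairs of untreated arrays 0.994 to 0.995. The treatment label was borne out by Irf1, an interferon-induced transcription factor, which had log2 signals of 9.81 to 10.04 in untreated cells and 12.53 to 12.97 after IFNγ (log2 change 2.80, adjusted p = 6.44e-09 from limma). Of 9 markers of epithelial and lung epithelial cells none had a probe named here. Of 5 mesenchymal markers, 3 had a named probe (Vim, Sparc and Fn1), and these 3 were detected on all 6 arrays. Of 12 haematopoietic and endothelial markers, 2 had a named probe (Cd68 and Kdr), and neither was detected on all 6 arrays.

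None of the ribosomal protein genes covered here passed the test between IFNγ-treated and untreated cells. Of the 53 genes, 0 were higher and 0 were lower at an FDR below 0.01 (limma, Benjamini-Hochberg over 13545 probes), against 1.04% of all tested probes called higher and 0.0148% called lower. At an unadjusted p under 0.05, 0 were higher and 2 were lower, where the background was 4.16% and 3.64% of all tested probes. The lowest adjusted p among the 53 genes was 0.613. The log2 changes ran from -0.27 to 0.19 with standard errors of 0.10 to 0.22, and their median was -0.09, a ratio of 0.942 between IFNγ and untreated arrays, beside a median of -0.01 over all tested probes. Changes below 0 were seen for 36 of the 53 genes (67.9%) and for 53.2% of all tested probes. The 32 genes of the 60S subunit had a median log2 change of -0.09, and the 21 genes of the 40S subunit of -0.05.

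**Figure D1:**
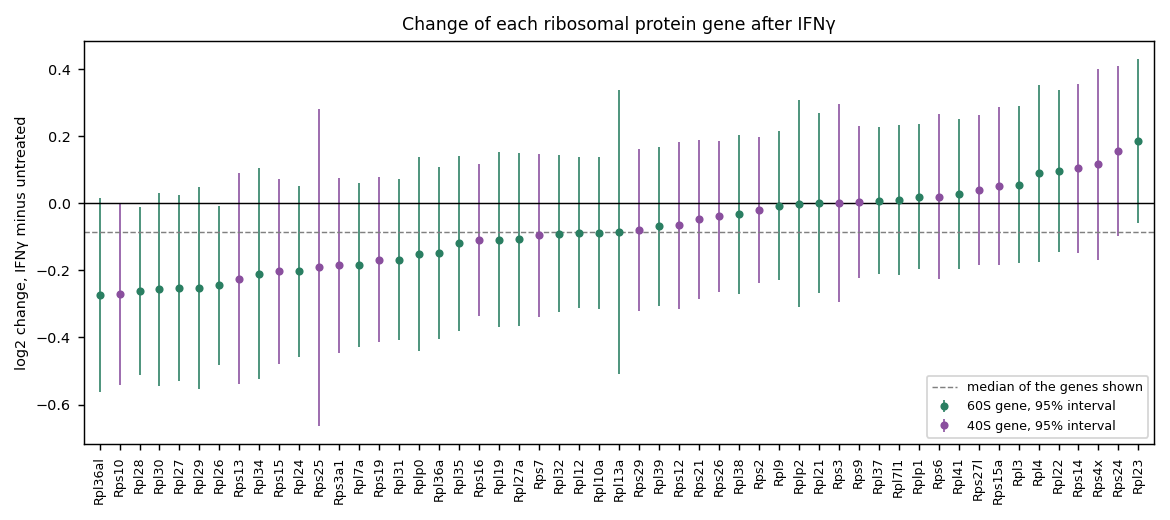
Log2 change of each of the 53 ribosomal protein genes after IFNγ (vertical axis, IFNγ minus untreated, 3 arrays against 3), in ascending order, with 95% intervals from limma; green marks 60S and purple 40S genes, and the dashed line is their median of -0.09. The changes lie between -0.27 (Rpl36al) and 0.19 (Rpl23), and 51 of the 53 intervals include 0.

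Under quantile normalization, the intervals describe how large a change these arrays leave room for. For 43 of the 53 genes the 95% interval of the log2 change lay within 0.5 in either direction, which is a ratio of 1.41, and for all 53 genes it lay within 1. The 10 intervals that reached further all did so on the lower side, down to -0.66 for Rps25, whereas the highest upper bound was 0.43, for Rpl23. These intervals are not adjusted for the number of genes, and a gene not past the threshold is not shown to be unchanged. They also hold for this normalization only. With 75th-percentile centring the change of Rpl36al was -0.429 and the median of the 53 genes -0.205. The 43 genes include Rplp1 and Rps2, whose normalized values were fixed by rank, so their intervals bound little.

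The genes differed widely in the signal of their probes, from a mean untreated log2 signal of 6.19 for Rps15a to 15.68 for Rplp1, around a median of 12.95 for the genes' means over the 6 arrays. The same median over all tested probes was 7.36. A probe's brightness depends on its sequence as well as on the amount of RNA, so these signals are not an order of transcript levels. Of the 53 genes, 52 were detected on all 6 arrays and Rps15a on 5. Their summed intensities made up 5.49% to 5.64% of all light on the 3 untreated arrays and on IFNγ replicates 1 and 2, but 4.73% on IFNγ replicate 3.

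**Figure D2:**
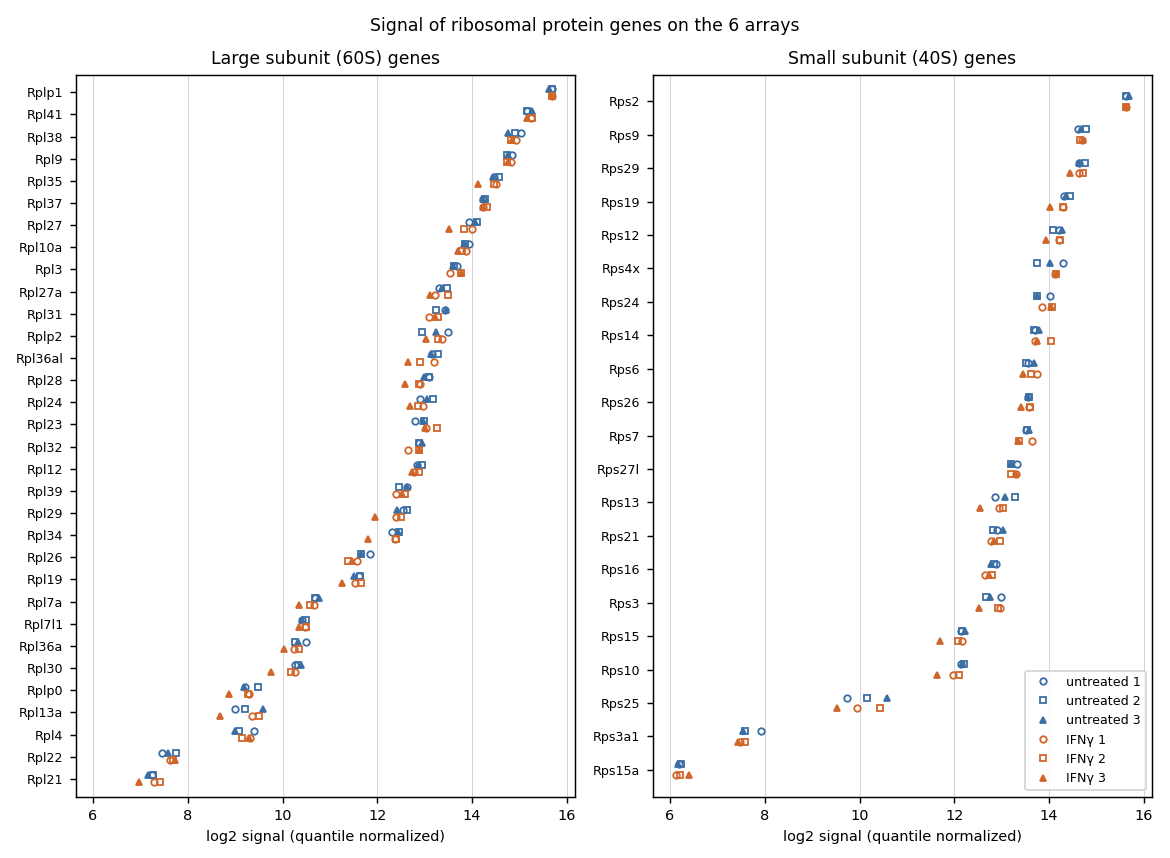
Quantile-normalized log2 signal (horizontal axis) of each 60S gene (left) and each 40S gene (right) on the 6 arrays, with untreated arrays in blue and IFNγ arrays in orange; filled triangles are replicate 3 of each group. The points are widest apart for Rps25 and Rpl13a, and IFNγ replicate 3 lies furthest left for 30 of the 53 genes.

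The stalk of the 60S subunit, which recruits the translation factors that hydrolyse GTP, is built from Rplp0, the anchor on the ribosome, and Rplp1 and Rplp2, which bind to it in pairs. The intensities of Rplp1 were 60931, 57897 and 46344 on the untreated arrays, in replicate order, against 58013, 51688 and 45569 on the IFNγ arrays. It was the brightest or the second brightest of all 45281 probes on every array, so its normalized log2 signal took only the values 15.70 and 15.64. Rps2, a 40S protein near the entry of the mRNA, held the other of these top 2 ranks on every array. A rank at the ceiling fixes the quantile-normalized value, and the log2 changes of 0.02 (Rplp1) and -0.02 (Rps2) therefore carry little information on these genes. In settings that do not fix values by rank their direction was not settled: they were 0.15 and 0.10 under cyclic loess but -0.03 and -0.08 with 75th-percentile centring, and neither gene was called. Rplp2 had log2 signals of 13.49, 12.94 and 13.23 in untreated cells and of 13.36, 13.28 and 13.03 after IFNγ. The groups overlapped throughout, and its log2 change was 0.00 (standard error 0.14, adjusted p = 0.999). For Rplp0 the signals were 9.20, 9.48 and 9.19 against 9.28, 9.27 and 8.87, with only IFNγ replicate 3 below all untreated arrays (log2 change -0.15, adjusted p = 0.796).

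Among the other 60S genes, the lowest change was that of Rpl36al, an autosomal paralog of the X-linked Rpl36a. Its log2 signals, again in replicate order, were 13.17, 13.28 and 13.14 in untreated cells against 13.20, 12.91 and 12.65 after IFNγ. IFNγ replicate 1 lay within the untreated range and the other two below it (log2 change -0.27, standard error 0.13, adjusted p = 0.662). Its parent Rpl36a had signals of 10.49, 10.27 and 10.32 against 10.25, 10.36 and 10.02, with overlapping groups and a log2 change of -0.15 (adjusted p = 0.773). The mRNAs of both encode nearly the same protein, and how well the probes keep them apart was not tested.

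Rpl28 and Rpl26 are the 2 genes that passed an unadjusted p of 0.05, and Rpl26 is named here after its values were seen. Rpl28 had log2 signals of 13.09, 13.09 and 12.99 in untreated cells and of 12.90, 12.89 and 12.59 after IFNγ. All 3 IFNγ arrays were below all untreated ones, with replicate 3 the lowest (log2 change -0.26, standard error 0.12, unadjusted p = 0.0412, adjusted p = 0.613). Rpl26, whose human protein binds the mRNA of p53, had 11.84, 11.65 and 11.66 against 11.57, 11.38 and 11.46. Here too the groups did not overlap, but IFNγ replicate 2 was the lowest array (log2 change -0.24, standard error 0.11, unadjusted p = 0.0437, adjusted p = 0.62). Without IFNγ replicate 3, the change of Rpl26 was the lowest of the 53 genes, at -0.24.

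Rpl30, Rpl27 and Rpl29 completed the low end. Rpl30, whose yeast counterpart represses the splicing of its own transcript, had log2 signals of 10.27, 10.32 and 10.39 in untreated cells and of 10.27, 10.18 and 9.76 after IFNγ. IFNγ replicate 1 lay just below the lowest untreated array, and IFNγ replicate 3 far below it (log2 change -0.26, adjusted p = 0.671). Rpl27 had 13.932, 14.104 and 14.062 against 13.996, 13.823 and 13.518, and Rpl29, also known as a heparin-binding protein, had 12.55, 12.64 and 12.41 against 12.40, 12.49 and 11.95. In both, the groups overlapped and IFNγ replicate 3 was the lowest array (log2 change -0.25 for each, adjusted p = 0.665 and 0.69). Without IFNγ replicate 3 the log2 changes of Rpl30, Rpl27 and Rpl29 were -0.10, -0.12 and -0.09.

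At the high end stood Rpl23, one of the proteins that bind MDM2. Its log2 signals were 12.80, 12.98 and 12.97 in untreated cells and 13.04, 13.26 and 13.01 after IFNγ. It was the 1 gene of the 53 whose IFNγ arrays all lay above the untreated ones (log2 change 0.19, standard error 0.11, adjusted p = 0.708), where 6.32% of all tested probes did so. Rpl23 had 3 probes, and the log2 change was -0.02 for the one nearly as bright and 0.07 for a dim one, so its probes differed in sign. Rpl22, which in mice is needed for the development of αβ T cells, had 7.45, 7.76 and 7.58 against 7.63, 7.69 and 7.74 (log2 change 0.10, adjusted p = 0.854). For Rpl4, which lines the exit tunnel of the 60S subunit, the signals were 9.39, 9.09 and 8.99 against 9.31, 9.14 and 9.29 (log2 change 0.09, adjusted p = 0.882). In both genes the groups overlapped. For Rpl5, Rpl11 and Rpsa, the value table held no probe annotated with that symbol alone, so they are not covered here.

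Rpl13a, the GAIT component, had the widest spread within both groups after Rps25. Its log2 signals were 8.99, 9.20 and 9.59 in untreated cells against 9.35, 9.50 and 8.67 after IFNγ. The lowest array was IFNγ replicate 3 and the highest untreated replicate 3, so the spread within each group (SD 0.30 and 0.44, n = 3 each) exceeded the log2 change of -0.09 (standard error 0.20, adjusted p = 0.932). Without IFNγ replicate 3 this change was 0.17 and without replicate 2 it was -0.25, so its sign rested on single arrays. The 7 measured genes of the GAIT list, which include Rpl13a, Gapdh, Syncrip and Eprs, had 0 called at an FDR below 0.01 and 0 at an unadjusted p under 0.05, with a median log2 change of 0.10. The largest were those of Eprs, the tRNA synthetase that carries RPL13A in the human complex (0.19, adjusted p = 0.826), and of the kinase gene Dapk3 (-0.19, adjusted p = 0.73).

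Of the 40S genes, Rps10 had the lowest change. Its log2 signals were 12.15, 12.21 and 12.16 in untreated cells and 11.96, 12.11 and 11.63 after IFNγ. All IFNγ arrays were below the untreated ones, replicate 2 only slightly and replicate 3 by the most (log2 change -0.27, standard error 0.13, adjusted p = 0.643), and without IFNγ replicate 3 the change was -0.14. Rps6, the 40S protein that S6 kinases phosphorylate downstream of mTOR, had 13.56, 13.52 and 13.68 against 13.75, 13.62 and 13.45. IFNγ replicate 1 was its highest array and IFNγ replicate 3 its lowest (log2 change 0.02, adjusted p = 0.976).

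The largest positive changes of the 40S genes were those of Rps24, Rps4x and Rps14. Rps24 had log2 signals of 14.01, 13.74 and 13.75 in untreated cells and of 13.85, 14.06 and 14.05 after IFNγ, with overlapping groups (log2 change 0.16, adjusted p = 0.767). Rps4x had 14.29, 13.75 and 14.01 against 14.12, 14.14 and 14.14. Its 3 IFNγ arrays fell within the untreated range, which was among the widest of the 53 genes (SD 0.27, n = 3; log2 change 0.12, adjusted p = 0.849). Rps14, whose human counterpart is lost in the 5q- syndrome, had 13.71, 13.68 and 13.78 against 13.70, 14.04 and 13.75, where IFNγ replicate 2 alone was high (log2 change 0.10, adjusted p = 0.846).

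Rps25, which some viral mRNAs need in order to start translation without a cap, had the widest spread among untreated arrays. Its log2 signals were 9.74, 10.17 and 10.58 in untreated cells against 9.94, 10.44 and 9.53 after IFNγ. As with Rpl13a, untreated replicate 3 was the highest array and IFNγ replicate 3 the lowest, and the groups overlapped (SD 0.42 and 0.45, n = 3 each; log2 change -0.19, adjusted p = 0.85). Without IFNγ replicate 3 its change was 0.03, and without untreated replicate 3 it was 0.02. Over the 53 genes the median SD was 0.08 among untreated and 0.14 among IFNγ arrays. The residual SD had a median of 0.12 for these genes and of 0.14 for all tested probes, most of them dimmer. For the 1691 other probes with a mean log2 signal of 10 or more it was 0.15.

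The remaining genes named here were the dimmest or brightest probes and the other paralogs, and in none did the groups separate. Rpl41, which encodes a very short basic peptide, had log2 signals of 15.16 to 15.26 over the 6 arrays, and Rpl38, which in mice is needed for axial patterning, of 14.76 to 15.04 (log2 changes 0.03 and -0.03). Rpl41 ranked between 6 and 9 of all probes by intensity, close to the ceiling described for Rplp1 and Rps2. Its change was 0.17 under cyclic loess and 0 with 75th-percentile centring. At the dim end, Rps15a had 6.12 to 6.39, Rpl21 6.97 to 7.41 and Rps3a1 7.43 to 7.92 (log2 changes 0.05, 0.00 and -0.19). Rps27l, a paralog of Rps27 that p53 induces, had 13.19 to 13.32, and Rpl7l1, a paralog of Rpl7, had 10.36 to 10.51 (log2 changes 0.04 and 0.01). For Rps27, Rpl7 and Rps27a, the value table held no probe annotated with that symbol alone.

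The median below that of all probes was not seen without 1 array. IFNγ replicate 3 was the lowest of the 6 arrays for 30 of the 53 genes (56.6%) and the highest for 1. Over all tested probes it was the lowest for 30.6% and the highest for 30.1%. For the 1691 other probes with a mean log2 signal of 10 or more, these shares were 38.7% and 34.4%. The other 5 arrays were the lowest for between 1 and 7 of the 53 genes. Relative to the mean of the 6 arrays, the genes had a median of -0.14 on IFNγ replicate 3 and of 0.01 to 0.05 on the other arrays. Without IFNγ replicate 3, the median log2 change of the 53 genes was -0.02, equal at this rounding to that of all tested probes (-0.02), and 32 of the 53 changes lay below 0. With array weights, where limma gave IFNγ replicate 3 a weight of 0.232 against 0.68 to 2.67 for the other arrays, the median was also -0.02. With arrays centred on their 75th percentile instead of quantile normalization, the median was -0.21 and 48 of the 53 changes lay below 0, against -0.04 over all tested probes. None of these settings called a ribosomal protein gene.

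**Figure D3:**
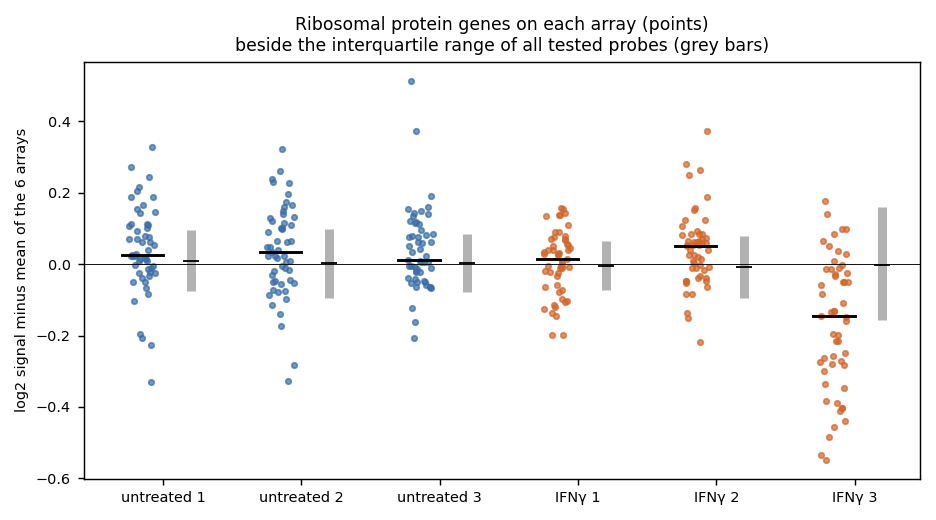
Log2 signal of each of the 53 genes on each array minus its mean over the 6 arrays (points, with black bars for their medians), beside the interquartile range (grey bars) and median (short black lines) of all 13545 tested probes. The median of the genes is -0.14 on IFNγ replicate 3 and 0.01 to 0.05 on the other 5 arrays.

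All 3 IFNγ arrays lay below all 3 untreated arrays for 6 of the 53 genes (11.3%), where the same held for 6.88% of all tested probes. These were Rps10, Rpl28, Rpl30, Rpl26, Rpl7a and Rps19, of which Rpl7a and Rps19 are named here after their values were seen. Rps19, which in humans is the gene most often mutated in Diamond-Blackfan anaemia, had log2 signals of 14.31, 14.43 and 14.36 against 14.29, 14.30 and 14.01. Rpl7a had 10.68, 10.68 and 10.76 against 10.66, 10.57 and 10.34. In 5 of the 6 genes, all but Rpl26, IFNγ replicate 3 was the lowest array.

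How far IFNγ replicate 3 lay below the other 2 IFNγ arrays differed with the brightness of the probe. Its median difference from their mean was -0.28 for the 14 genes with a mean log2 signal under 12, -0.17 for the 27 genes from 12 to 14 and -0.04 for the 12 genes at 14 or more. Over all tested probes this median was 0.00. The brightest range holds Rplp1 and Rps2, whose normalized values were fixed by rank, and Rpl41, close to that ceiling. The part of IFNγ replicate 3 in the median change of each range was not tested.

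More than 1 probe was present for 15 of the 53 genes. The gap between the brightest and the dimmest probe of a gene ranged from 0.22 (Rps2) to 7.01 (Rps19) on the log2 scale, while the log2 changes of the probes of a gene differed by 0.00 (Rps12) to 0.41 (Rps24). For Rps24 the brightest probe gave 0.16 and the other, with a mean untreated signal of 8.15, gave -0.25. By the mean of its probes, Rps24 had a change of -0.05. The probes also lay on both sides of 0 for Rpl21, Rpl23, Rpl27a, Rps13 and Rps9, from -0.22 to 0.03 for Rpl27a and from -0.23 to 0.04 for Rps13. Both probes of Rpl38 were below 0 but far apart, at -0.03 and -0.27. The probes of Rpl29, at -0.25 and -0.28, and those of Rpl28, at -0.26 and -0.23, lay close together. Over all 72 probes, 0 were called and the median log2 change was -0.07.

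**Figure D4:**
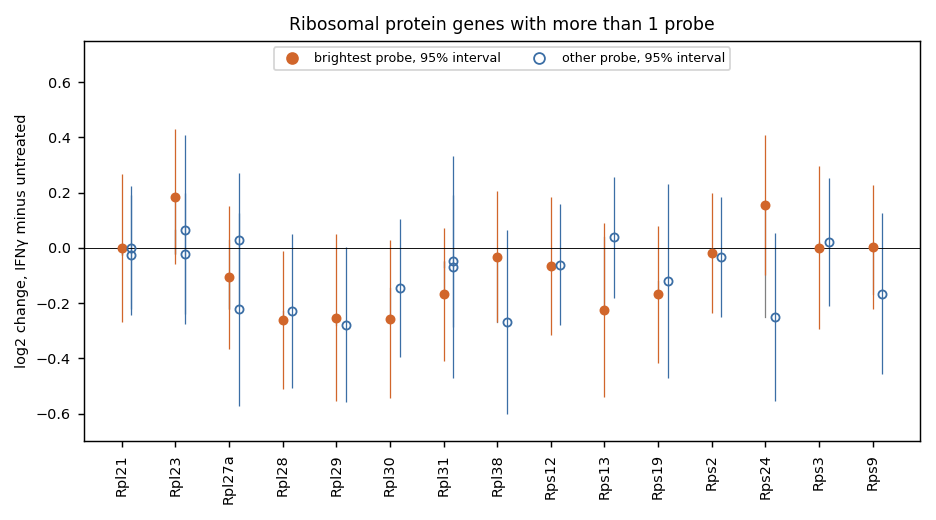
Log2 change after IFNγ (vertical axis, with 95% intervals from limma) of every probe of the 15 ribosomal protein genes with more than 1 probe; the brightest probe, which stands for the gene, is filled in orange and the others are open blue circles. The widest gap is that of Rps24, from -0.25 to 0.16, and its intervals overlap.

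A further 20 probes of ribosomal protein pseudogenes, left out by the rule, gave signals as well, up to a mean untreated log2 signal of 14.87 for Rpsa-ps1 and 14.04 for Rpl27-ps1. Pseudogene sequences are near-copies of the parent mRNA, and how much of this light came from the parent mRNAs was not tested. Of these probes 0 were called, the median log2 change was -0.14, and IFNγ replicate 3 was the lowest array for 14 of the 20.

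The other lists of the translation machinery held no called gene either (limma, FDR below 0.01). At an unadjusted p under 0.05, 0 mitochondrial ribosomal protein genes were higher and 3 lower, 2 assembly genes were higher and 6 lower, and on the other lists only Eef2, which stands on 2 of them, passed. Over all tested probes these shares were 4.16% higher and 3.64% lower. Of 70 mitochondrial ribosomal protein genes, 62 had a change below 0, with a median of -0.13, and IFNγ replicate 3 was the lowest array for 60 of the 70 (85.7%). The largest changes were those of Mrps21 (-0.44, adjusted p = 0.569) and Mrps6 (-0.35, adjusted p = 0.633). Among 86 genes of ribosome assembly and RNA polymerase I the median was -0.02. Here Pes1, of the complex that processes the large-subunit ribosomal RNA, had 0.42 (adjusted p = 0.198) and Noc4l, a nucleolar factor of 40S assembly, had 0.40 (adjusted p = 0.113). The 29 initiation factor genes had a median of 0.03, and their largest changes were those of Eif3a (0.35, adjusted p = 0.664) and the helicase gene Eif4a2 (0.29, adjusted p = 0.692).

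The 13 genes of elongation and release had a median of -0.07, with Eef2, the translocase of elongation, at 0.50 (adjusted p = 0.613) and Eef1e1 at -0.16 (adjusted p = 0.763). Eef2 is also on the list of 17 other genes with TOP mRNAs, whose median was 0.03 and where Npm1, a nucleolar chaperone, had 0.28 (adjusted p = 0.707). The 22 genes of mTOR and TOP control had a median of 0.03, with Mlst8, an mTOR subunit, at 0.28 (adjusted p = 0.65) and Eif4ebp1, the translation repressor that mTOR phosphorylates, at -0.21 (adjusted p = 0.811). The 13 host genes of small nucleolar RNAs had a median of -0.04, and their largest changes were those of Eif4a2 and Hspa8 (0.21, adjusted p = 0.685). On these 4 lists and that of the initiation factors, IFNγ replicate 3 was the lowest array for 27.3% to 46.2% of the genes.

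**Figure D5:**
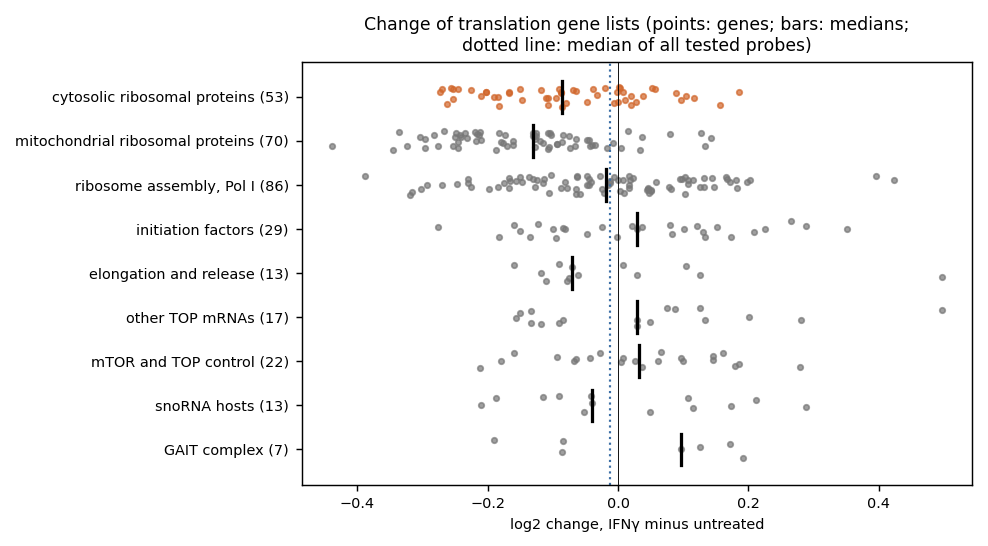
Log2 change after IFNγ (horizontal axis) of the genes of each list, with the number measured in brackets; points are genes, black bars are medians, and the dotted line is the median of all tested probes (-0.01). The cytosolic (-0.09) and mitochondrial (-0.13) ribosomal protein genes have the lowest medians of the 9 lists, and no gene shown was called.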

How the data were processed

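For each of 45281 probes the authors deposited the average bead intensity from BeadStudio, not normalized between arrays, and a detection p-value. Their separate value table, in log2 units, holds 12421 of these probes. The deposited log2 values differed by at most 4.97e-14 from quantile-normalized log2 intensities. Which background setting BeadStudio had is not given in the sources used. Intensities were log2 transformed and quantile normalized, and 13545 probes with a detection p of 0.01 or less on at least 1 array entered the comparison of the 3 IFNγ arrays with the 3 untreated ones by lmFit and eBayes of limma (3.58.1, run in R 4.3.3), with Benjamini-Hochberg adjustment over all of them. The fit was tested on simulated data, with a pass rule only for changes far larger than those of the ribosomal protein genes. That test does not bear on changes of their size. Symbols came from the platform annotation (11180 probes with 1 symbol). Updating them through RefSeq changed no member. Sequences are RefSeq's. The files give no depth, and the number of arrays limits the precision. Differences and levels are on the log2 scale.

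The genes and lists were chosen with earlier results of these data known. Named are the 6 highest and 6 lowest changes, the 4 brightest, 4 dimmest and 4 most variable genes, the paralogs with their parents, 10 genes of known extra roles or of the stalk, and 2 genes of each other list. Alternatives were normexp background correction (offset 50), 75th-percentile centring, cyclic loess, the value table, other detection filters, a trended and robust prior, array weights, a replicate block, each array left out, an FDR below 0.05, the mean of a gene's probes, every probe, and updated symbols.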

Additional observations from a re-analysis of the deposited data

How the results depend on the processing

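Under all 19 alternatives, 0 ribosomal protein genes were called in either direction, and the median log2 change of the 53 genes stayed below 0, from -0.21 with 75th-percentile centring to -0.02 with array weights or without IFNγ replicate 3. Leaving out each other array in turn gave -0.11 to -0.07. Not every alternative is a separate check. Updated symbols gave the same genes and fit, and an FDR below 0.05 and every probe reused the main fit. The value table held the same normalized values for fewer probes. Of the 27 named genes, 12 kept the sign of their change under every alternative that gave them a value and 15 changed it under at least 1, none of them past the threshold. Over all tested probes, 78 were higher and 0 lower with 75th-percentile centring, 74 and 1 with probes detected on all 6 arrays, and 248 and 35 with array weights. The trended and robust prior gave 1 lower, and an FDR below 0.05 on the main fit gave 7 lower. With single arrays left out, 83 to 172 were higher and 0 to 6 lower. Except for the changed FDR threshold, the cause of these differences was not tested. With the replicate number as a block, 145 probes were higher and 3 lower, the 53 genes kept 0 calls and a lowest adjusted p of 0.62. Deviations of same-numbered arrays from their group means correlated at -0.19, 0.04 and -0.03, so the numbers were not taken as pairs. The ceiling of the brightest probes and 3 arrays a group limit what can be seen.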
